A study of Mus musculus with 45 samples.

Results

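The genes of the alpha subunits of voltage-gated potassium channels were described across the cortex, hippocampus and retina of the mouse. They were taken by symbol, as Kcna, Kcnb, Kcnc, Kcnd, Kcnf, Kcng, Kcnh, Kcnq, Kcns or Kcnv followed by a number, and the Kcnab beta subunits were left out. The rule used no measured value and gave 40 of the 36172 genes listed. They were 8 Kcna, 2 Kcnb, 4 Kcnc, 3 Kcnd, 1 Kcnf, 4 Kcng, 8 Kcnh, 5 Kcnq, 3 Kcns and 2 Kcnv genes. RNA had been sequenced from mice of both sexes, all aged 3 months, that were given tamoxifen or only its carrier, sunflower oil, called vehicle below. Tamoxifen binds oestrogen receptors and is used in mouse genetics to start Cre recombination at a chosen time. Strain, genotype, any Cre allele, dose and the interval before sampling are not stated in the labels used here. Whether the groups shared them cannot be read from the labels. The cortex gave 3 female vehicle, 4 female tamoxifen, 4 male vehicle and 3 male tamoxifen libraries, the hippocampus 3, 4, 3 and 4, and the retina 3, 4, 4 and 4. The tissues of an animal carry the same number, so the tissues were not independent sets of animals. A male tamoxifen cortex library, of animal 962, held 4567 counts in all and was left out by the rule, and no hippocampus library of animal 965 was used here.

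Voltage-gated potassium channels open when a membrane depolarises and let potassium out, which ends the action potential and sets how soon and how often a neuron can fire again. Pores are assembled from several alpha subunits. Kcna, Kcnb, Kcnc, Kcnd, Kcnh and Kcnq subunits form pores of their own, while Kcnf, Kcng, Kcns and Kcnv subunits are electrically silent and act by joining Kcnb subunits. In photoreceptors, the silent subunit Kcnv2 is known to take part in a potassium current of the inner segment, and loss of human KCNV2 causes a cone dystrophy with an altered rod response.

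Library totals lay between 10259768 and 22375163 counts in the cortex, 31154309 and 44153244 in the hippocampus and 9143811 and 18253874 in the retina, and the 40 genes took 0.276% to 0.388% of them. The labelled tissues carried their defining markers. The summed level of 17 rod photoreceptor genes was at least 59097 CPM (counts scaled to the library size, adjusted by TMM) in every retina library, at most 114 CPM in the cortex and at most 22.6 CPM in the hippocampus. The 7 markers of hippocampal granule and pyramidal neurons summed to at least 649 CPM in the hippocampus and at most 258 CPM elsewhere. Some libraries were rich in markers of another tissue, at over 5 times the tissue's median summed marker level. Whether they held that tissue was not tested. The marker-rich libraries were cortex of animals 958 and 960 and hippocampus of 951, 958 and 962 for choroid plexus, and retina of 951, 959 and 962 for lens. Results that change without them are given with both values. Among hippocampus libraries, that of male tamoxifen animal 959 stood farthest from the others, with a median absolute log2 deviation of 0.157 over 12177 genes, against 0.0559 to 0.127 in the rest. Among retina libraries, those of female vehicle animal 955 and female tamoxifen animal 953 stood farthest. Their deviations were 0.146 and 0.136 over 10855 genes, against 0.058 to 0.0884 in the rest. Each tissue was deposited as a table of its own, so tissue and table cannot be told apart in what follows. RNA came from whole tissue, in which fewer cells of a type and less RNA per cell cannot be told apart.

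Most of the family was detected in each tissue. At a median of at least 1 CPM over libraries cortex and hippocampus each had 34 of the 40 genes and the retina had 30. With a limit of 5 CPM these counts were 29, 29 and 24. The sum of their levels per kilobase of exon was close in the tissues, with medians of 488, 464 and 484 CPM per kilobase in vehicle cortex, hippocampus and retina, and its make-up differed.

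Per kilobase of exon, the silent subunit Kcnv2 took 28.9% ± 1.04 (SD, n = 7 vehicle animals) of the family's total in the retina, and 24.9% per kilobase of coding sequence. Kcna5, a delayed rectifier best known from the heart atrium and blood vessels, took 7.60% there per kilobase of exon and 3.42% per kilobase of coding sequence, where Kcna2 took 6.37%. In the cortex no gene came near the retinal share of Kcnv2. Kcna1, an axonal subunit that limits repetitive firing, took 12.6% ± 0.83, the silent subunit Kcnf1 10.5% ± 0.88 and Kcna2, a partner of Kcna1 in axons, 7.45% ± 0.28 (n = 7). With coding length Kcna2 led in the cortex, at 16.9%, and Kcna1 took 11.6%. In the hippocampus Kcna1 took 16.0% ± 0.98 (n = 6) and Kcnd2, a dendritic A-type subunit, 7.84% ± 0.71. With coding length these shares were 14.6% and 6.03%, and Kcna2 took 13.05% there, against 5.81% per kilobase of exon.

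By subfamily, Kcna genes held the largest share in both brain tissues, with 27.2% ± 0.66 in the cortex and 28.2% ± 0.84 in the hippocampus, against 17.0% ± 0.78 in the retina. Kcnc genes held 18.7%, 22.8% and 8.43%, and Kcnd genes 6.49%, 11.8% and 3.39%, in the order cortex, hippocampus, retina. Kcnf, which is Kcnf1 alone, held 10.5%, 4.85% and 0.284%. Kcnq genes, which include those of the slow M-current that restrains firing, held 6.48%, 9.16% and 1.01%. Kcnv genes held 4.82%, 2.75% and 29.0%. Not every subfamily is given here, so no order among all of them in the retina is to be read from these shares.

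**Figure D1:**
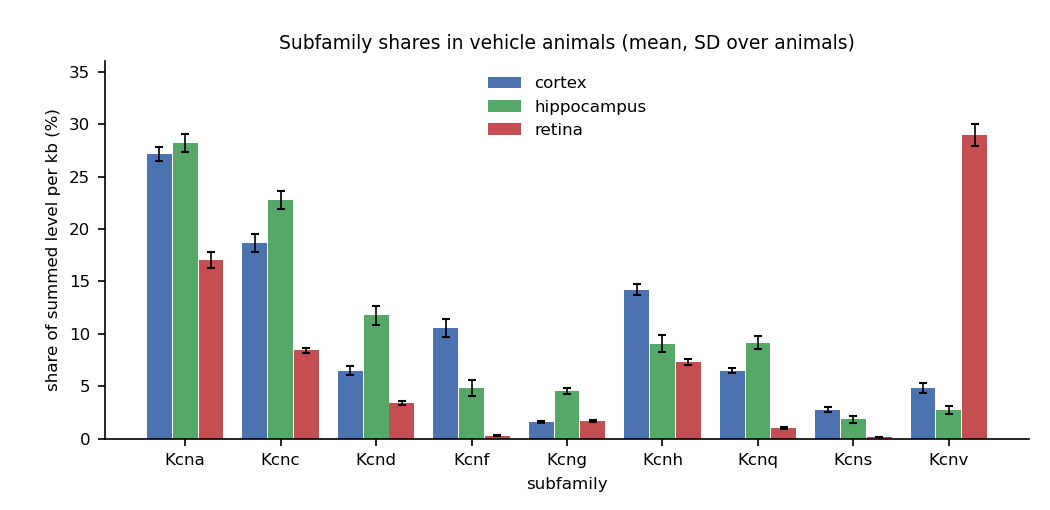
Shares of the subfamilies shown in the summed level per kilobase of exon of the 40 genes, in percent, in vehicle animals of each tissue. Bars are means over 7 cortex, 6 hippocampus and 7 retina animals and error bars are SDs. Not every subfamily is shown. Kcnv stands at 29.0% in the retina and under 5% in the other tissues.

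Differences between tissues were tested in vehicle animals with edgeR's quasi-likelihood test over 15903 genes, of which 37 were alpha subunits. A gene was called at an adjusted p under 0.05 and a difference of at least 2-fold. Of the 37, 7 were called higher in retina than cortex, where 20.4% of all genes were, and 19 were called lower, where 21.3% of all genes were. Against the hippocampus, 8 were called higher in the retina (21.5% of all genes) and 22 lower (21.8% of all genes). Hippocampus and cortex were closer, with 4 higher in the hippocampus (5.16% of all genes) and 5 lower (6.58% of all genes). The median log2 difference of the 37 was -1.27 for retina minus cortex and -1.29 for retina minus hippocampus, beside all-gene medians of 0.02 and 0.03. For hippocampus minus cortex it was 0.12, beside 0.00. The 3 contrasts share animals and libraries and are not separate evidence.

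**Figure D2:**
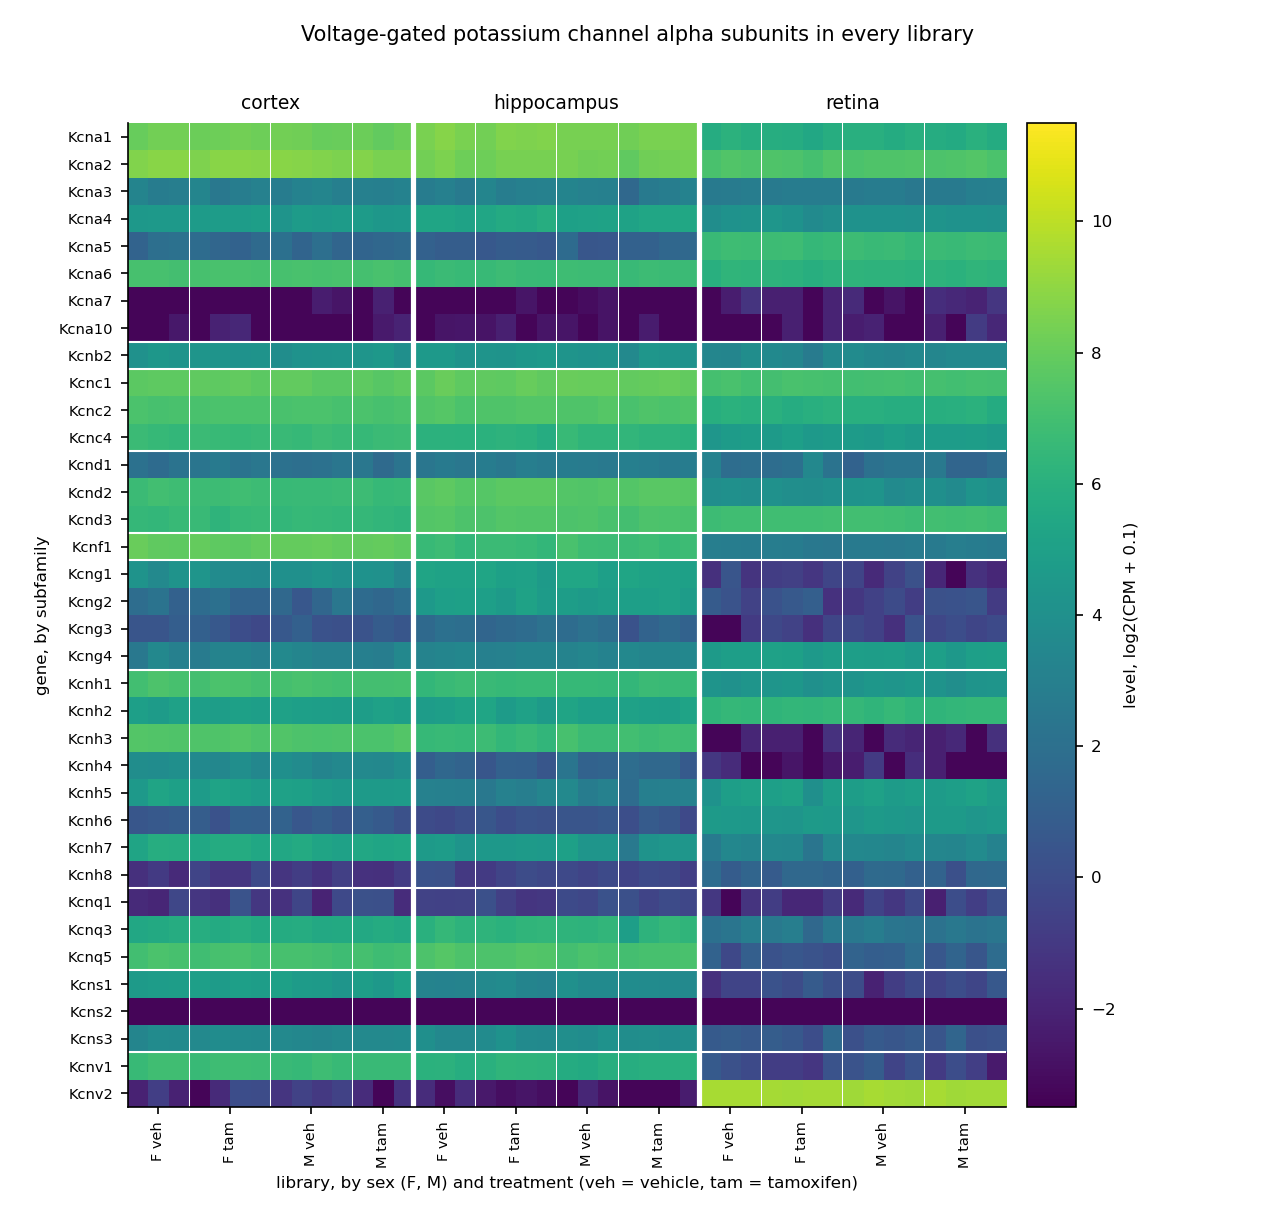
Levels of genes of the family in all 43 libraries, as log2 of CPM plus 0.1, with genes by subfamily and libraries by tissue, sex and treatment. Kcnv2 is bright in the retina block alone, where Kcnh3, Kcnh4 and Kcnv1 are dark, and Kcns2 is listed at 0 throughout.

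**Figure D3:**
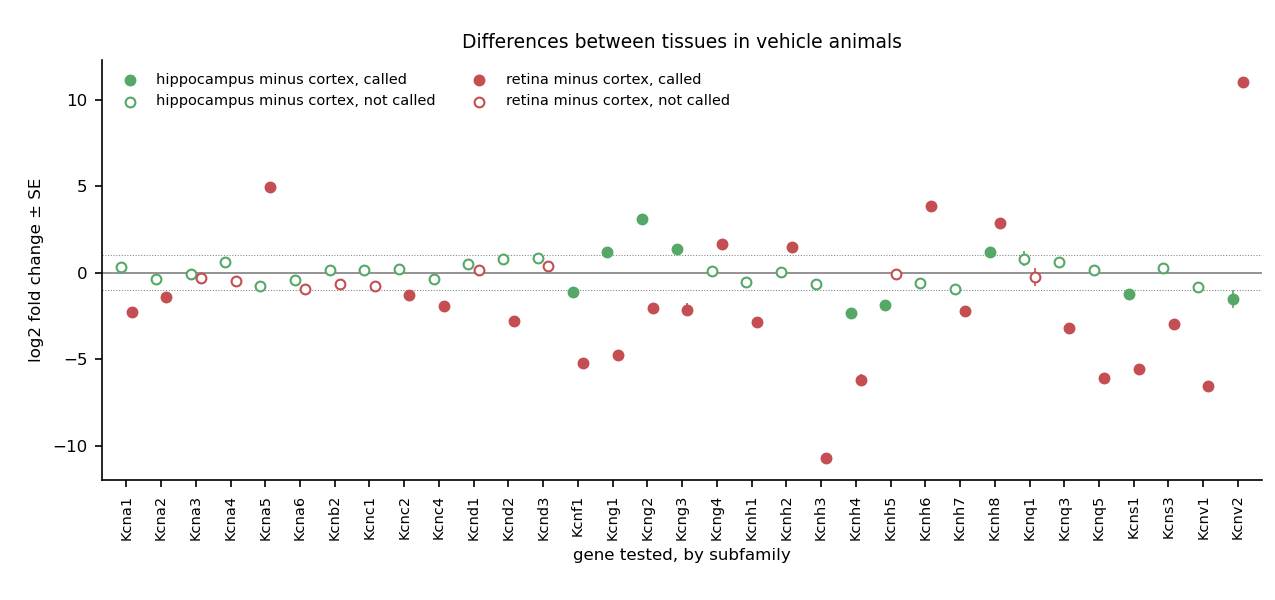
Log2 fold change ± SE between tissues in vehicle animals for genes of the family. Filled points were called (adjusted p under 0.05 and at least 2-fold, dotted lines) and open points were not. Retina minus cortex spans -10.71 (Kcnh3) to 11.03 (Kcnv2), while hippocampus minus cortex spans -2.31 to 3.12.

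Among pore-forming subunits, the delayed rectifier Kcnb2 had medians of 18.8, 19.1 and 11.2 CPM in cortex, hippocampus and retina. Its retina minus cortex log2 difference of -0.66 ± 0.12 (SE) stayed under 2-fold.

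The silent Kcnv subunits had opposite patterns. Kcnv2 (chr19:27322619-27337179, plus strand, GRCm38 as the tables give it, with 2 coding exons) lay between 659 and 753 CPM in the retina, with a median of 710. It was at most 0.911 CPM in the cortex and 0.233 CPM in the hippocampus. Vehicle retina held 68276 counts of it against 40 in vehicle cortex, a level 1871 times higher (95% exact interval 1374 to 2620, for counting error only). Kcnv1 (chr15:45106284-45114934, minus strand, 3 coding exons), which inhibits Kcnb channels it joins, lay between 95.2 and 120 CPM in the cortex, with a median of 103, between 48.0 and 79.4 CPM in the hippocampus, with a median of 63.3, and at most 1.72 CPM in the retina. The log2 retina minus cortex difference was -6.54 ± 0.13 (edgeR adjusted p = 2.4e-35). Its cortex level exceeded that of the hippocampus by under 2-fold (log2 hippocampus minus cortex -0.85 ± 0.08).

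The few cortical counts of Kcnv2 were set beside the summed rod markers. The cortex libraries of animals 953 and 954 had the highest levels, with 0.911 and 0.877 CPM, where the 17 rod genes summed to 114 and 96.8 CPM. In 960 and 951, with no count, the sum was 29.0 and 38.1 CPM. Animal 952 had 0.209 CPM with a rod sum of 112 CPM, so the levels did not run in one order. The lowest rod sums, 24.8, 24.9 and 28.5 CPM in 958, 959 and 961, came with 0.139, 0.236 and 0.308 CPM of Kcnv2. Animals 951 to 954 and 960 were given tamoxifen, so the vehicle contrast below does not compare them. Of vehicle animals, 966 and 964 were highest, with 0.592 and 0.589 CPM and rod sums of 49.2 and 82.3 CPM. In the hippocampus, where Kcnv2 lay between 0 and 0.233 CPM, the rod sum was 18.0 to 22.6 CPM. Kcnv2 was called lower in the hippocampus than the cortex, with a log2 difference of -1.54 ± 0.53 (edgeR adjusted p = 0.012), but not without animal 957 (-0.85, adjusted p = 0.28). The part of rod RNA in this difference was not tested.

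Of the other silent subunits, none was called higher in the retina but Kcng4. Kcnf1 (chr12:17172100-17176888, minus strand, 1 coding exon) lay between 208 and 264 CPM in the cortex, with a median of 236, between 85.9 and 147 CPM in the hippocampus, with a median of 107, and between 5.31 and 7.57 CPM in the retina. The 3 ranges did not overlap. The hippocampus was lower than the cortex with a log2 difference of -1.14 ± 0.06 (edgeR adjusted p = 1.4e-18) and the retina with -5.20 ± 0.08 (adjusted p = 1.5e-38). Kcns1 followed the same order, with medians of 28.0, 12.2 and 0.810 CPM in cortex, hippocampus and retina and a log2 retina minus cortex difference of -5.56 ± 0.19. Kcns3 had medians of 11.8, 14.3 and 1.49 CPM.

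Of the 4 genes called higher in the hippocampus than the cortex, 3 were Kcng subunits. Kcng2 had its lowest, median and highest levels at 24.0, 30.0 and 35.7 CPM in the hippocampus, against 1.37, 3.09 and 5.45 CPM in the cortex and 0.295, 1.08 and 1.92 CPM in the retina. Every hippocampus library was above every other library, and the log2 difference from the cortex was 3.12 ± 0.19 (edgeR adjusted p = 9.7e-18). Kcng1 had medians of 16.3, 35.5 and 0.365 CPM in cortex, hippocampus and retina, with log2 differences of 1.18 ± 0.13 for hippocampus minus cortex and -5.95 ± 0.21 for retina minus hippocampus. Kcng3 was low, with medians of 1.29, 3.23 and 0.661 CPM, and was called higher in the hippocampus than the cortex (log2 1.37 ± 0.26). It was called lower in the retina than the cortex (log2 -2.14 ± 0.38), but not in tamoxifen animals (-0.99). Kcng4 went the other way, with 22.5 to 34.2 CPM in the retina against 5.51 to 11.7 CPM in the cortex (log2 1.67 ± 0.12) and 8.22 to 11.3 CPM in the hippocampus.

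In the Kcna subfamily, Kcna5 (chr6:126532551-126535555, minus strand, 1 coding exon) separated the retina. It lay between 90.7 and 114 CPM there, with a median of 106, against 2.19 to 4.10 CPM in the cortex and 1.34 to 3.29 CPM in the hippocampus. The log2 difference was 4.98 ± 0.13 from the cortex (edgeR adjusted p = 2.1e-31) and 5.76 ± 0.13 from the hippocampus. Kcna1 and Kcna2 were lower in the retina, with medians of 56.3 and 163 CPM, than in the cortex, with 287 and 431 CPM, and the hippocampus, with 354 and 322 CPM. Their retina minus cortex log2 differences were -2.27 ± 0.07 and -1.41 ± 0.07. For Kcna2 the retina minus hippocampus difference of -1.02 ± 0.07 lay at the 2-fold limit and fell inside it in tamoxifen animals (-0.95), in all animals (-0.99), without animal 963 (-0.97) and with library totals alone (-0.91). Kcna4, an A-type subunit, was called lower in the retina than the hippocampus, at -1.08 ± 0.08, and missed the limit with library totals alone (-0.96). Kcna3 and Kcna6 differed by under 2-fold between all 3 tissues.

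Of the fast-firing Kcnc subunits, Kcnc2 and Kcnc4 were called lower in the retina than in both brain tissues. Kcnc2 had medians of 151, 166 and 61.1 CPM in cortex, hippocampus and retina, and Kcnc4, which inactivates quickly, 100.4, 71.98 and 26.8 CPM. Kcnc1 had 194 to 240 CPM in the cortex, 214 to 269 CPM in the hippocampus and 123 to 145 CPM in the retina.

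The A-type Kcnd subunits, which delay firing in dendrites, split between Kcnd2 and Kcnd3. Kcnd2 had medians of 108, 196 and 15.3 CPM in cortex, hippocampus and retina, with a log2 retina minus hippocampus difference of -3.60 ± 0.07 (edgeR adjusted p = 4.7e-35). Kcnd3 had 90.2, 161 and 121 CPM and differed by under 2-fold in each contrast. Kcnd1 was at most 11.05 CPM in any library and was not called.

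Some Kcnh genes were lower and others higher in the retina than in the cortex. Kcnh3 (chr15:99224976-99242817, plus strand, 15 coding exons), a forebrain channel of the ELK group, lay between 152 and 180.5 CPM in the cortex, with a median of 164, between 83.7 and 140 CPM in the hippocampus, with a median of 105, and at most 0.295 CPM in the retina. Vehicle retina held 11 counts against 17483 in vehicle cortex, a level 1450 times higher in the cortex (95% exact interval 810 to 2905, for counting error only). Kcnh4, of the same group, had medians of 12.8, 2.27 and 0.0595 CPM, and both the hippocampus (log2 -2.31 ± 0.21) and the retina (-6.18 ± 0.32) were called lower than the cortex. Kcnh8, the remaining ELK gene, was low, with medians of 0.357, 0.734 and 2.56 CPM. It was called higher in the retina than the cortex (log2 2.87 ± 0.29, edgeR adjusted p = 8.9e-12) and the hippocampus (1.67 ± 0.25). Its hippocampus minus cortex log2 difference of 1.20 ± 0.30 was 0.66 ± 0.28 in tamoxifen animals and 0.93 in all animals, both under 2-fold.

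The ERG genes Kcnh2, Kcnh6 and Kcnh7, whose currents help to end long depolarisations, did not move together. Kcnh6 (chr11:106008203-106034064, plus strand, 13 coding exons) lay between 19.7 and 25.3 CPM in the retina, against 1.08 to 2.25 CPM in the cortex and 0.728 to 1.62 CPM in the hippocampus. Its retina minus cortex log2 difference was 3.84 ± 0.14 (edgeR adjusted p = 2.2e-26). Kcnh2 had medians of 30.2, 31.1 and 85.7 CPM and was also higher in the retina (log2 1.47 ± 0.08 from the cortex). Kcnh7 had medians of 43.9, 21.3 and 10.6 CPM and was lower in the retina (log2 -2.22 ± 0.19 from the cortex). Its hippocampus minus cortex difference of -0.93 ± 0.17 passed 2-fold in tamoxifen animals (-1.19), in all animals (-1.06) and without animal 955 or 963 (-1.04 each), and its retina minus hippocampus difference of -1.29 missed it in tamoxifen animals (-0.93). The EAG genes differed likewise. Kcnh1 had medians of 135, 96.4 and 19.2 CPM, while Kcnh5 had 27.1 and 8.04 and 29.9 CPM, lower in the hippocampus than in the cortex (log2 -1.84 ± 0.17) and retina.

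Of the M-current genes, Kcnq3 and Kcnq5 were called lower in the retina than in both brain tissues. Kcnq5 had its lowest, median and highest levels at 113, 132 and 155 CPM in the cortex, 129, 154 and 185 CPM in the hippocampus and 0.749, 1.86 and 3.56 CPM in the retina. The log2 retina minus cortex difference was -6.06 ± 0.12 (edgeR adjusted p = 7.2e-35). Kcnq3 had medians of 50.3, 76.4 and 5.20 CPM.

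Kcna7, Kcna10, Kcnq1 and Kcns2 were under 1 CPM on average in every group. Kcns2, a silent subunit, was listed at 0 in all 43 libraries. If its reads were counted, 0 counts allow a level of up to 0.0679 to 0.328 CPM depending on the library (a floor of 3 counts). The listed values alone cannot show whether reads of Kcns2 were counted, so no absence is to be read from them. Kcna7 and Kcna10 were at most 0.358 and 0.441 CPM in any library. Kcnq1, the heart and inner ear channel that pairs with Kcne subunits, had a median of 0.668 CPM in the hippocampus and overlaps the antisense RNA Kcnq1ot1 over 83437 bases, so its reads cannot be assigned with certainty. Its call as lower in the retina than the hippocampus (log2 -1.06 ± 0.46, edgeR adjusted p = 0.034) was lost with the animal as a replicate block (-1.02 ± 0.49, adjusted p = 0.058). It was also lost without animal 957 (-0.84) or 963 (-0.94), in tamoxifen animals (-0.59), in all animals (-0.83) and with library totals alone (-0.95). Without the libraries rich in choroid plexus or lens markers, or without animal 958 alone, Kcnq1 was instead called higher in the hippocampus than the cortex (log2 1.25 and 1.30, against 0.81 with all).

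To show the sequence before genes with opposite patterns, the 250 bases upstream of the start are given for Kcna5 and Kcnh6, high in the retina, and for Kcnf1 and Kcnh4, low there. They come from RefSeq (GRCm38.p6), which gave promoters of 25 of the 40 genes, and are written 5′ to 3′ on the gene's strand. Matches to TAATCC, the core bound by photoreceptor homeodomain factors such as Crx, and to GGGCGG, the GC box of Sp1-type factors, were sought on both strands and are in capitals.
Kcna5 (chr6:126535556-126535805, strand minus): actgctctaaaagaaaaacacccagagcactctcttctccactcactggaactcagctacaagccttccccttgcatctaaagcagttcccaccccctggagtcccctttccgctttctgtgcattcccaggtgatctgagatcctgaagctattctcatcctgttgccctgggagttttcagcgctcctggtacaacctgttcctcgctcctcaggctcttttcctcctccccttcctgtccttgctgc
Kcnh6 (chr11:106007898-106008147, strand plus): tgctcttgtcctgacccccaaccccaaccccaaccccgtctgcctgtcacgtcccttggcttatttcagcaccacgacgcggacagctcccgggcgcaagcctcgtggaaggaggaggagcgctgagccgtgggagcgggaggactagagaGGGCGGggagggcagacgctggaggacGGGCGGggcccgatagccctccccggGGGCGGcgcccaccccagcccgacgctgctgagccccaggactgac
Kcnf1 (chr12:17176889-17177138, strand minus): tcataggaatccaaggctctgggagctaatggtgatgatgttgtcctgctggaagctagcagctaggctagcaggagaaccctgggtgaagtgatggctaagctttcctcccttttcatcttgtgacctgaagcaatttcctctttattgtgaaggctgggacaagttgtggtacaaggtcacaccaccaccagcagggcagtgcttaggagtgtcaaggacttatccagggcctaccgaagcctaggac
Kcnh4 (chr11:100759779-100760028, strand minus): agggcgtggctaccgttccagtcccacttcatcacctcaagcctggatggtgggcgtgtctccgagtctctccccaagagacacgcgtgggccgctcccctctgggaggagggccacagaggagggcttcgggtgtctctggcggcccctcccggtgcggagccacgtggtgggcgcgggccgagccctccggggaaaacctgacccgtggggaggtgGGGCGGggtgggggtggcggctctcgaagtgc
TAATCC was in none of the 25 genes' windows, against 7.2% of all 27025 genes in the table. The other 15 genes, Kcnv2, Kcnv1 and Kcnh3 among them, had no window and were not searched. GGGCGG was in a window of 16 of the 25 genes, against 35.4% of all genes. Some genes have several windows, and counted by window GGGCGG was in 17 of 30 of the family's and in 32.7% of all 32851. Kcnh6 has 3 GC boxes and Kcnh4 has 1, while Kcna5 and Kcnf1 have none. Whether GC boxes go with the retinal level was not tested. A match says only that the letters are present.

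Tamoxifen was compared with vehicle in each tissue to see whether treated animals differed at sampling. No alpha subunit passed an adjusted p of 0.05 (edgeR) in any tissue with the sexes averaged. The fits tested 35 of them in the cortex, where 0.599% of all genes passed, 36 in the hippocampus, where 0.0652% did, and 34 in the retina, where 0.0474% did. At an unadjusted p under 0.05 there were 1, 4 and 4, where 9.35%, 7.84% and 7.13% of all genes lay under it. In females alone none passed either (0.375%, 0.013% and 0.0406% of all genes), with 1, 1 and 2 at an unadjusted p under 0.05 (8.5%, 5.51% and 6.36% of all genes). In males none passed (0.0272%, 0.0% and 0.0% of all genes), with 2, 4 and 2 at an unadjusted p under 0.05 (6.85%, 5.75% and 3.97%). The difference in the effect between the sexes passed for none (0.0% of all genes in each tissue), with 1, 0 and 0 at an unadjusted p under 0.05 (5.52%, 3.01% and 3.4%). DESeq2 called Kcna4 in the hippocampus with the sexes averaged and no other alpha subunit in these contrasts. For that contrast it called 64 of all 15339 genes, and edgeR 10.

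**Figure D4:**
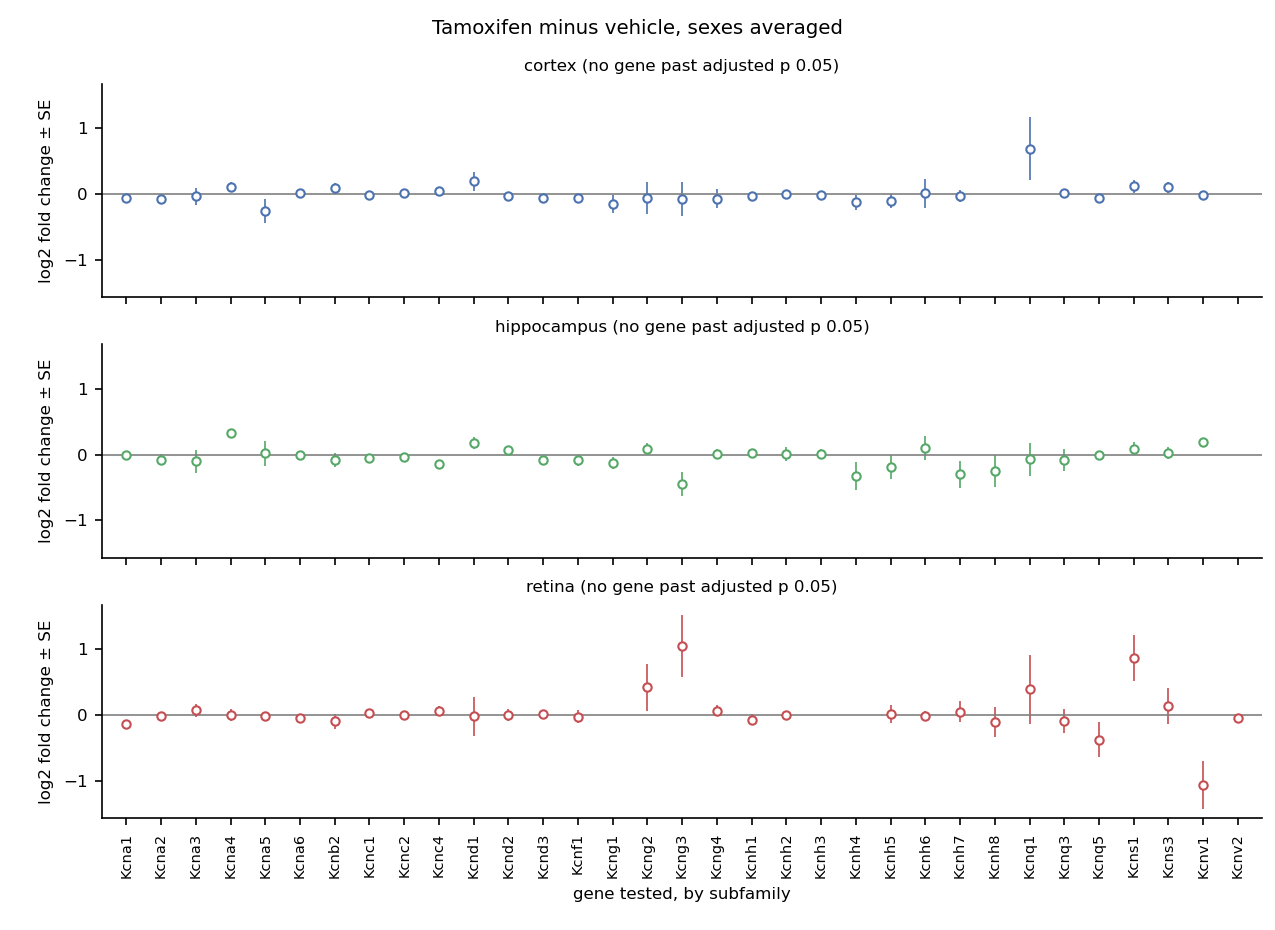
Log2 fold change ± SE of tamoxifen against vehicle, sexes averaged, for genes of the family in each tissue. No point passed an adjusted p of 0.05. The points farthest from 0 are low genes of the retina, such as Kcnv1 at -1.06 and Kcns1 at 0.87.

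Kcna4 (chr2:107290589-107298504, plus strand, 1 coding exon) in the hippocampus had the smallest p of all. The female vehicle animals had 39.6, 40.2 and 35.3 CPM and the female tamoxifen animals 41.7, 51.4, 47.6 and 58.1 CPM. The male vehicle animals had 32.9, 33.4 and 34.7 CPM and the male tamoxifen animals 35.4, 42.2, 41.7 and 42.6 CPM. All 8 tamoxifen animals lay above every vehicle animal of their sex, in a gene picked for its smallest p. How many of all genes separate in this way was not counted. The log2 difference was 0.32 ± 0.07 (edgeR adjusted p = 0.16), and 0.38 ± 0.10 in females and 0.26 ± 0.10 in males. DESeq2 gave an adjusted p of 0.0061, and edgeR 0.048 without animal 951, whose hippocampus library was rich in choroid plexus markers. Over the other alternatives edgeR's adjusted p lay between 0.067 and 0.35. The log2 differences of Kcna4 in the cortex (0.10 ± 0.07) and retina (0.00 ± 0.09) had edgeR adjusted p-values of 0.745 and 0.999.

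In the retina, Kcnv1 and Kcns1 rested on few counts, at most 25 and 18 in a library. Kcnv1 had 0.653 to 1.72 CPM in vehicle and 0.0896 to 1.18 CPM in tamoxifen animals (log2 -1.06 ± 0.36, edgeR adjusted p = 0.46). Kcns1 had 0.138 to 0.898 and 0.660 to 1.64 CPM (log2 0.87 ± 0.35, adjusted p = 0.59). The 12 lens genes summed to 3.25 to 8.91 CPM in vehicle and 2.56 to 498 CPM in tamoxifen animals, with 0 of 11 passing and 10 at an unadjusted p under 0.05, and the 3 red cell genes summed to 17.4 to 66.2 and 10.1 to 27.6 CPM. The libraries rich in lens genes were those of animals 951, 959 and 962, all given tamoxifen. The part of these markers in the values of Kcnv1 and Kcns1 was not tested. Without the lens-rich libraries the log2 differences were -0.72 for Kcnv1 and 0.79 for Kcns1.

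The remaining values with the smallest p were small or came from low genes. In the cortex they included Kcna2 (log2 -0.08 ± 0.05, edgeR adjusted p = 0.70) and Kcna5 (-0.26 ± 0.18, adjusted p = 0.73). In the hippocampus Kcnv1 had 56.6 to 79.4 CPM with tamoxifen and 48.0 to 70.6 CPM without (log2 0.18 ± 0.06, adjusted p = 0.48), and Kcng3 1.10 to 4.41 against 3.02 to 4.43 CPM (log2 -0.45 ± 0.18, adjusted p = 0.57). In the retina Kcnv2 had means of 698 ± 26.9 (SD, n = 8) and 714 ± 40.1 CPM (n = 7) with tamoxifen and vehicle, a log2 difference of -0.04 ± 0.03 that did not pass. In a test of whether the effect differed between tissues no alpha subunit passed with edgeR (0.0126% of all genes), 4 had an unadjusted p under 0.05 (5.23%), and DESeq2 called Kcnv1 (adjusted p = 0.00335). In this test DESeq2 called 26 of all 15903 genes, and edgeR 2.

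Between the sexes, 8 of 36 alpha subunits passed in the hippocampus (edgeR), where 17.7% of all genes did, so the family's share was near that of all genes and is no result about its members. Kcns1, Kcnh3, Kcnc4 and Kcna6 were higher in males and Kcnq5, Kcnv1, Kcna4 and Kcnd3 higher in females. None passed in the cortex (0.0817% of all genes) or the retina (0.149%). In each, 3 had an unadjusted p under 0.05, as did 8.62% and 13.1% of all genes. DESeq2 called Kcnd2 in the cortex (log2 male minus female -0.18, adjusted p = 0.0499, edgeR 0.246). For that contrast it called 33 of all 14684 genes, and edgeR 12. Whether the sex difference itself differed between tissues was not tested.

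Kcnq5 in the hippocampus lay between 156 and 185 CPM in 7 females, with a median of 160, and between 129 and 152 CPM in 7 males, with a median of 141. All 7 males were below every female, and the log2 difference male minus female was -0.24 ± 0.05 (edgeR adjusted p = 0.0088). How many of all genes separate the sexes in this way was not counted. Kcns1 had 8.71 to 12.96 CPM in females and 11.7 to 16.2 CPM in males, which overlap, with a log2 difference of 0.44 ± 0.10 (adjusted p = 0.0098). Kcnh3 had means of 94.9 ± 9.40 and 117 ± 12.7 CPM (SD, n = 7 each, females then males) and a log2 difference of 0.31 ± 0.08. Kcnc4 had 67.4 ± 5.61 and 79.5 ± 9.92 CPM and Kcna6 100.3 ± 5.80 and 109 ± 4.49 CPM. Kcnv1 had 70.0 ± 7.37 and 58.0 ± 5.93 CPM, Kcna4 44.9 ± 7.91 and 37.6 ± 4.41 CPM and Kcnd3 172 ± 8.97 and 152 ± 12.8 CPM. The log2 differences of these 8 genes ran from -0.27 to 0.44, so no gene differed by as much as 1.5-fold.

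**Figure D5:**
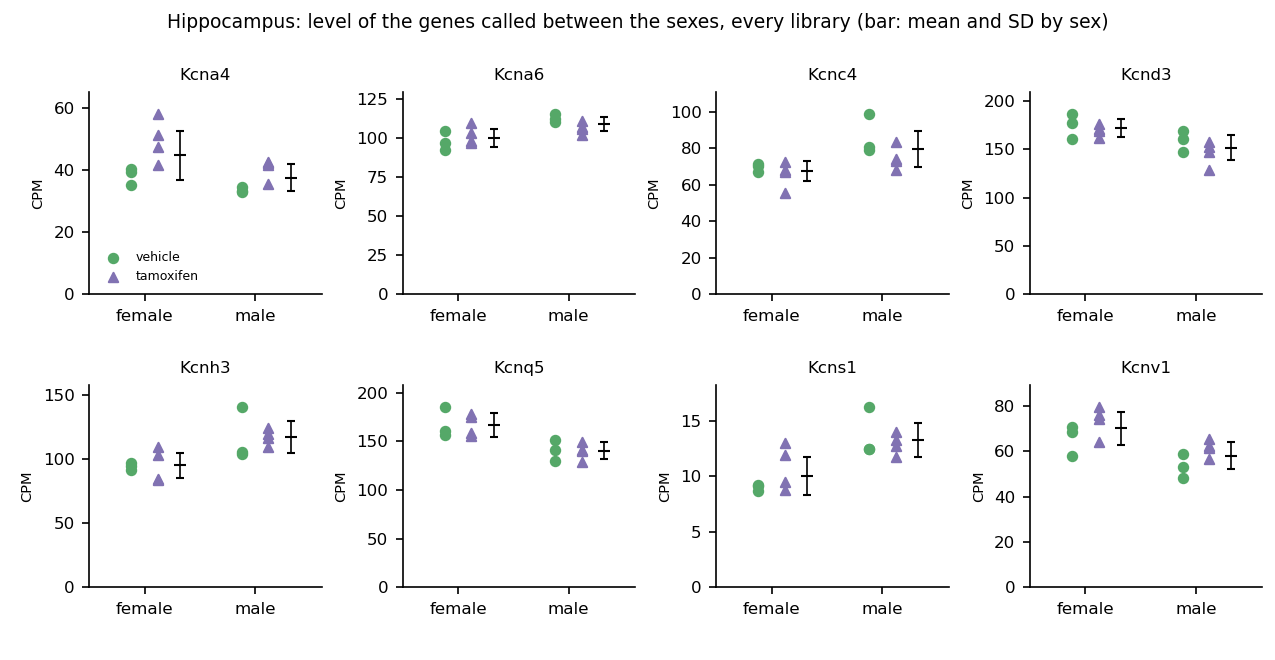
CPM of the 8 genes called between the sexes in the hippocampus, with each of the 14 libraries as a point (circles vehicle, triangles tamoxifen) and the mean and SD of each sex as a bar, on axes from 0. Only for Kcnq5 do the 7 males all lie below the 7 females.

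The count of 8 fell to 5 without animal 954, to 5 without 955 and to 4 without 963. It was 11 without the 3 choroid plexus-rich libraries. Kcnq5, Kcns1, Kcnh3 and Kcnv1 passed in each of the 18 alternatives run. Kcna6 missed the threshold in 13 of them (adjusted p up to 0.11). Kcna4 missed it without 954, 955, 957, 963 or 964 (up to 0.066), Kcnd3 without 952, 954, 955, 957, 963 or 966 (up to 0.091) and Kcnc4 without 963 (0.074). Some markers of other cells also passed between the sexes in the same libraries, where 17.7% of all genes passed. Not every marker list is given here. All 3 red cell markers found, of 5 listed, were higher in males, with sums of 11.7 to 53.3 CPM in females and 39.4 to 80.8 CPM in males. Of 6 oligodendrocyte markers 3 were higher, with sums of 3069 to 3964 and 3546 to 4114 CPM, and of 7 hippocampal neuron markers 3 were higher, with sums of 649 to 736 and 707 to 831 CPM. The 13 choroid plexus markers summed to 330.5 to 4930 CPM in females and 285 to 2322 CPM in males. None passed, and 12 had an unadjusted p under 0.05, as did 35.4% of all genes. No marker found of these lists was at 0 throughout. Their part in the sex differences was not tested.

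Auxiliary subunits change the gating or placing of the pores. Of the 19 listed, 15 were tested between tissues. Kcne2, a small subunit abundant in choroid plexus, was called higher in the retina than in the cortex (log2 5.02 ± 0.88), with 50.4 to 77.0 CPM against a cortex median of 0.43 CPM and up to 27.4 CPM in the choroid plexus-rich libraries. Lower in the retina than the cortex were Lgi1, a secreted protein linked to Kcna channels (log2 -3.69 ± 0.06), Dpp10 (-3.31 ± 0.09) and Dpp6 (-1.05 ± 0.04), partners of Kcnd channels, Kcnip3 (-1.83 ± 0.06), Adam22 (-1.56 ± 0.05) and Kcne4 (-1.28 ± 0.37). Against the hippocampus 2 were higher, Kcne2 and Kcnip1 (21.5% of all genes), and 7 lower (21.8% of all genes). Dpp10 and Kcnab3 were lower in the hippocampus than the cortex (log2 -1.77 ± 0.08 and -1.55 ± 0.10), and none was higher. Of all genes 6.58% were called lower there and 5.16% higher. The median for retina minus cortex was -0.89, beside 0.02 for all genes. Of all genes 20.4% were called higher and 21.3% lower in the retina than the cortex.

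Of 36 other potassium and HCN channel genes, 34 were tested. In the retina 4 were called higher (20.4% of all genes) and 22 lower (21.3% of all genes) than in the cortex. The median log2 difference was -1.70. Among the 4 were Kcnj14, an inward rectifier (log2 8.12 ± 0.11, with 647 to 767 CPM in the retina and at most 4.14 CPM in the cortex), and the pacemaker channels Hcn4 (2.85 ± 0.19) and Hcn3 (1.29 ± 0.11). The lowest was Kcnj4 (log2 -8.13 ± 0.16). Against the hippocampus 5 were higher (21.5% of all genes) and 20 lower (21.8% of all genes). Between hippocampus and cortex Kcnj6 was higher in the hippocampus (log2 1.28 ± 0.11) and Kcnt1, Kcnj12 and Kcnj9 lower. Of all genes 5.16% were called higher there and 6.58% lower.

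With tamoxifen no gene of either list passed in any tissue. The auxiliary subunits with the smallest p were Kcnip4 in the cortex (log2 -0.12 ± 0.04, edgeR adjusted p = 0.38), Dpp10 in the hippocampus (-0.18 ± 0.09, adjusted p = 0.70) and Dpp6 in the retina (0.17 ± 0.04, adjusted p = 0.23). Among the other channels, Kcnn2, a calcium-activated channel, came closest, at -0.27 ± 0.07 in the cortex (adjusted p = 0.086). At an unadjusted p under 0.05 there were 4, 0 and 2 auxiliary subunits and 5, 4 and 3 other channels in cortex, hippocampus and retina. Of all genes 9.35%, 7.84% and 7.13% lay under it. Between the sexes, 3 auxiliary subunits (Kcnip3, Kcnab2 and Kcnab3) and 8 other channels were higher in the male hippocampus and 3 other channels lower. Of all genes 17.7% passed there, in either direction.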

How the data were processed

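RNA was measured in 14 cortex, 14 hippocampus and 15 retina libraries, 1 per animal and tissue. Per the labels' protocols, total RNA came from AllPrep columns and went into TruSeq RNA libraries. The authors deposited 1 table per tissue of estimated counts per gene, marked raw per the file headers and with fractional parts. The submitters' processing notes name GRCm38, mm10 and DESeq without their roles. What aligned and counted the reads, and whether strand was used, is not stated in the labels or headers, so overlapping genes can share reads.

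Counts were rounded and tested with edgeR 4.0.16 (filterByExpr with minimum count 10 and minimum total 15, TMM, quasi-likelihood test, R 4.3.3), with 1 mean per group of sex and treatment in each tissue and a joint fit of 12 groups for tissues. P-values were adjusted by Benjamini-Hochberg over all genes tested, and the threshold was 0.05. SE was taken as the size of the log2 fold change over the root of its F statistic. CPM uses the TMM library size of the joint fit. Lengths are exon unions and coding lengths of GENCODE M21, since the planned RefSeq protein lengths were not used here. The fits were tested on simulated data. Replicates are separate animals, and no 2 libraries of a group agreed within sampling noise (chi-square per gene at least 3.05).

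The rule for named genes took alpha subunits past the threshold for treatment or sex, otherwise the 3 with the smallest p, the 5 largest differences each way between tissues, each subfamily's highest gene per kilobase, and those under 1 CPM everywhere. From the 2 lists of related genes it took those past the threshold, otherwise those with the smallest p. Some genes of the family and lists are counted but not reported here by name. Genes and lists were chosen with earlier results of these data known. Same-numbered libraries come from 1 animal by their labels. Their deviations correlated at -0.168 to 0.225 between cortex and hippocampus. The alternatives were RLE size factors, DESeq2 1.42.0, no filter, leaving out animals or marker-rich libraries, keeping the cortex library of animal 962, the animal as a block, other fold limits and, added after seeing the data, library totals alone.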

Additional observations from a re-analysis of the deposited data

Results flagged for a closer look

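In groups of 4 libraries, 198 sets of values were tested for a library far from the other 3 by Dixon's test, which marks about 1 in 20 groups by chance, and 14 were marked. In female tamoxifen cortex, Kcng1 stood high in animal 951 (20.3 CPM, others 12.1 to 13.3). In male vehicle cortex Kcng1 stood high in 965 (19.2 CPM). In female tamoxifen hippocampus, Kcna1 (321 CPM, others 392 to 405) and Kcna2 (292 CPM) stood low in 951, a library rich in choroid plexus markers. In male tamoxifen hippocampus, animal 959 stood low for Kcna4 (35.4 CPM), Kcnh5 (3.41 CPM, others 7.81 to 8.45) and Kcnh7 (5.85 CPM, others 18.4 to 20.6). This is the hippocampus library that stood farthest from the rest over all genes.

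In female tamoxifen retina, Kcna3 stood low in 951 (6.2 CPM), Kcnd1 high in 953 (11.05 CPM, others 3.53 to 4.57), Kcnh7 low in 953 (5.02 CPM, others 10.9 to 11.8) and Kcnv2 low in 952 (685 CPM, others 710 to 713). Over all genes, the retina libraries of 953 and of female vehicle animal 955 stood farthest from the rest. Animal 955 had 8.63 CPM of Kcnd1 and 6.31 CPM of Kcnh7 there, in a group of 3 that was not tested. In male tamoxifen retina, Kcnb2 stood low in 959 (10.5 CPM), Kcnh6 low in 961 (20.7 CPM) and Kcns3 high in 960 (2.55 CPM).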

How the results depend on the processing

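Of the counts under alternatives, 439 stayed within 1.5 times the count reported and 12 did not. DESeq2 gave 1 alpha subunit between the sexes in the cortex, 1 with tamoxifen in the hippocampus and 1 for a tissue difference in the tamoxifen effect, against 0 each. Leaving out 1 animal at a time, the tamoxifen count in the hippocampus ran from 0 to 1 and the count between the sexes there from 4 to 11. With no fold limit 16 were higher and 16 lower in the hippocampus than the cortex, with a 4-fold limit 1 and 1, and 4 were then higher in the retina than the hippocampus. With the animal as a replicate block the tissue counts were 4 and 5 (hippocampus against cortex), 7 and 19 (retina against cortex) and 8 and 21 (retina against hippocampus), and only the call of Kcnq1 changed. Library totals alone moved the all-gene median of retina minus hippocampus from 0.03 to 0.14 and left 19 lower there. Of single genes, 947 values kept their side of the threshold, 28 lost and 2 gained it, and no called value changed sign. Genes near 1 CPM rest on few counts in the shallower cortex and retina libraries.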
